A study of Homo sapiens with 12 samples.

Results

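The lysyl oxidase family has 5 members in humans, LOX, LOXL1, LOXL2, LOXL3 and LOXL4, and each had 1 entry among the 23398 gene entries of the deposited table. The members were taken by name. They were chosen by their role in collagen crosslinking and by the counts of these same libraries, in which LOX and LOXL1 moved in opposite ways between high and control glucose. Differences between glucose conditions are therefore given as what chose the genes, with no test read from them. RNA-seq was done on primary human brain microvascular endothelial cells, which form the inner lining of brain capillaries and were bought from a commercial supplier. The groups were siGlut1 in high glucose (3 libraries), non-silencing siRNA in high glucose (3 columns, of which 2 were used), siGlut1 in control glucose (3 libraries) and non-silencing siRNA in control glucose (3 libraries). Every group, controls included, had been transfected with an siRNA for 48 h. The siGlut1 siRNA targets SLC2A1, the gene of the glucose transporter GLUT1. How much glucose either medium held is not stated in the sources used. The labels do not say whether replicates were separate cultures. P-values therefore measure only the spread between these libraries, which may be technical.

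Lysyl oxidases are copper-dependent amine oxidases that are secreted into the matrix. They oxidise lysine and hydroxylysine side chains of collagens and lysine side chains of elastin to aldehydes, which then join into the crosslinks that make fibres and basement membranes stiff and insoluble. All members share the catalytic domain and differ in what precedes it: LOX and LOXL1 carry a propeptide that proteases of the BMP1 type remove, whereas LOXL2, LOXL3 and LOXL4 carry scavenger receptor cysteine-rich domains. In brain vessels these enzymes act on the collagen IV sheet under the endothelium and on the fibrillar collagens and elastin around larger vessels.

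The sequences before the start sites of LOX, LOXL1 and LOXL4 are shown because these 3 genes differed with knockdown when both media were averaged, and because LOX and LOXL1 are the pair with opposite signs in high glucose. They are the 250 bases before the annotated start, from RefSeq on the build GRCh38.p14, printed from 5′ to 3′ on the gene's own strand. The table of start sites matched 4 of the 5 members. Capitals mark each ACGTG, the core of the hypoxia response element, read on either strand, so that CACGT in capitals is a match on the opposite strand.
LOX, chr5:122078260-122078509 (- strand): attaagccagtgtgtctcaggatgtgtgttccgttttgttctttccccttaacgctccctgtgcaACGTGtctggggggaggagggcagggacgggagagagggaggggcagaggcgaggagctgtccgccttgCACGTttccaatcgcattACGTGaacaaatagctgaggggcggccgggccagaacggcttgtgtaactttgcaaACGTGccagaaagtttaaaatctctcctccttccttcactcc
LOXL1, chr15:73926212-73926461 (+ strand): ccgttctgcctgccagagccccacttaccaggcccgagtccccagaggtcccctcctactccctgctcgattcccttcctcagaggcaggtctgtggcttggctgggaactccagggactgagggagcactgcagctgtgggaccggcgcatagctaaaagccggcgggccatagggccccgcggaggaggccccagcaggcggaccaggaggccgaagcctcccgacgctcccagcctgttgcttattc
LOXL4, chr10:98268195-98268444 (- strand): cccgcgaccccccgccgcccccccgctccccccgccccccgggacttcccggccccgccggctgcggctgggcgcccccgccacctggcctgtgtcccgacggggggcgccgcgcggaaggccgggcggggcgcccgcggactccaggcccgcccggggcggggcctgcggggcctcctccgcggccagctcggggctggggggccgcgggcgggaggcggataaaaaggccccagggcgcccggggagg
The LOX window held 4 copies of ACGTG, beginning 185, 116, 98 and 42 bases before the start, whereas the windows of LOXL1, LOXL3 and LOXL4 held 0. At least 1 copy was present in 18.5% of the 35116 windows of that length from 27305 genes, and at least 4 copies in 0.669%. The motif GGGCGG, the GC box, occurred 6 times in the LOXL4 window, a number reached by 2.22% of windows, once in the LOX window and not in those of LOXL1 and LOXL3. At least 1 GC box was present in 42.6% of windows. The SMAD box CAGACA had 1 match in LOX, which shares bases with the ACGTG farthest from the start, and no match in LOXL1, LOXL3 or LOXL4, with matches in 13.6% of all windows. The interferon-stimulated response element, searched in its core form, had no match in these 4 windows and was present in 3.02% of all windows. Both strands were searched for each motif, and a match describes letters only.

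Deposited counts per library summed to between 40135082 and 90536476, with a median of 49686182. For the non-silencing group in high glucose, the column numbered 2 was the mean of replicates 1 and 3 in 23397 of 23398 entries, the 5 members included, so it was left out and 11 libraries remained. SLC2A1 was lower with siGlut1 by a log2 fold change of -1.61 ± 0.14 in high glucose (SE; edgeR adjusted p = 0.00090) and -1.58 ± 0.13 in control glucose (edgeR adjusted p = 0.000898). All 12 endothelial markers averaged above 1 CPM over the libraries (CPM is the count scaled to an equal library total). Of the 10 fibroblast markers, 3 were, with DPT at 0, and of the 10 pericyte and smooth muscle markers, 4 were, of which RGS5 supplied almost all counts (1491 to 2420 CPM) while PDGFRB stayed at or below 0.363 CPM. The control glucose libraries numbered 3 stood apart from the others of their groups in some matrix genes, with 699 CPM of COL4A1 against 1290 and 1429 CPM with siGlut1, and 510 CPM against 913 and 996 CPM with non-silencing siRNA. In these bulk libraries, fewer cells of a type and less RNA per cell cannot be told apart.

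LOXL2 was by far the most abundant member of the family in these endothelial cells. Levels are compared between genes as deposited RPKM, reads scaled by gene length and library total. LOXL2 had a median of 232 RPKM over the 11 libraries (218 to 245), which placed it at rank 220 of 23297 uniquely named entries. LOX followed with a median of 11 RPKM (9.19 to 14.6, rank 5289), and LOXL1 with 1.94 RPKM (1.24 to 3.41, rank 10033). LOXL4 had 0.418 RPKM (0.233 to 0.646, rank 12162) and LOXL3 0.218 RPKM (0.169 to 0.344, rank 12888). The order LOXL2, LOX, LOXL1, LOXL4, LOXL3 held within 11 of 11 libraries. Across libraries the ranges of LOXL4 and LOXL3 overlapped, and the LOXL4 level was only 1.09 to 3.56 times the LOXL3 level within a library. The other neighbours were separated by 16.5 to 24.0 times (LOXL2 over LOX), 3.12 to 9.81 times (LOX over LOXL1) and 2.36 to 9.46 times (LOXL1 over LOXL4). LOXL2 made up 93.4 to 94.97% of the summed RPKM of the family and LOX 3.95 to 5.67%. The family sum was 259, 260 and 258 RPKM with siGlut1 in high glucose and 256 and 258 RPKM with non-silencing siRNA in high glucose. It was 246, 245 and 239 RPKM with siGlut1 in control glucose and 245, 232 and 231 RPKM with non-silencing siRNA in control glucose.

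**Figure D1:**
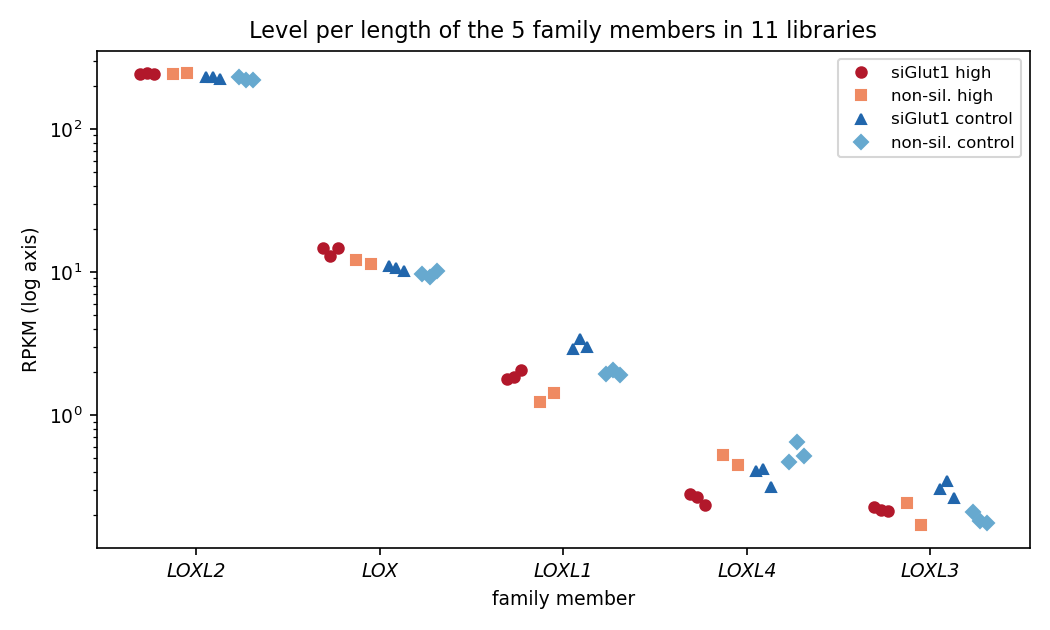
Deposited RPKM of the 5 lysyl oxidases in each of the 11 libraries on a log10 axis, with groups told apart by colour and points standing for libraries. LOXL2 lies near 232 RPKM, LOX near 11, and LOXL1, LOXL4 and LOXL3 lie lower, with the ranges of LOXL4 and LOXL3 overlapping.

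LOX, the enzyme that gave the family its name and acts on fibrillar collagen and elastin, was highest where both conditions were combined. Its level was 84.0, 74.3 and 84.0 CPM with siGlut1 in high glucose, against 68.2 and 64.5 CPM with non-silencing siRNA in high glucose. In control glucose it was 64.0, 61.4 and 57.7 CPM with siGlut1, against 55.0, 53.2 and 56.5 CPM with non-silencing siRNA. In CPM the groups did not overlap between siRNAs in either medium, nor between media with either siRNA. In deposited RPKM the siRNA groups overlapped in control glucose, with 10.10 in siGlut1 control 3 and 10.17 in non-silencing control 3. Between high and control glucose, the contrast that chose the genes, the log2 difference of LOX was 0.41 ± 0.07 with siGlut1 and 0.27 ± 0.08 with non-silencing siRNA (SE). Averaged over both siRNAs the difference was 0.34 ± 0.05, with an edgeR adjusted p of 0.0349 that is printed as part of the choice.

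LOXL1, the member tied to elastic fibres, ran the other way with glucose. Its level was 4.46, 4.65 and 5.20 CPM with siGlut1 in high glucose, against 3.04 and 3.52 CPM with non-silencing siRNA in high glucose. In control glucose it was 7.30, 8.59 and 7.44 CPM with siGlut1, against 4.84, 5.21 and 4.60 CPM with non-silencing siRNA. All 3 siGlut1 control libraries stood above every other library. Between high and control glucose, the log2 difference of LOXL1 was -0.70 ± 0.12 with siGlut1 and -0.57 ± 0.14 with non-silencing siRNA, and -0.64 ± 0.09 averaged over both (edgeR adjusted p = 0.0234, again part of the choice). The other members had averaged glucose differences of 0.09 ± 0.04 (LOXL2), -0.18 ± 0.18 (LOXL3) and -0.37 ± 0.15 (LOXL4). Averaged over siRNAs, 0.412% of the 14334 genes tested had an adjusted p under 0.05 for glucose, 0.014% did with siGlut1 alone and 0% with non-silencing siRNA alone. Among the members, the groups of the media did not overlap for 5 of 5 with siGlut1 and for 3 of 5 with non-silencing siRNA, where 22.5% and 17.8% of all genes did not. LOX and LOXL1 are in both counts, which therefore restate in part the choice of the genes.

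**Figure D2:**
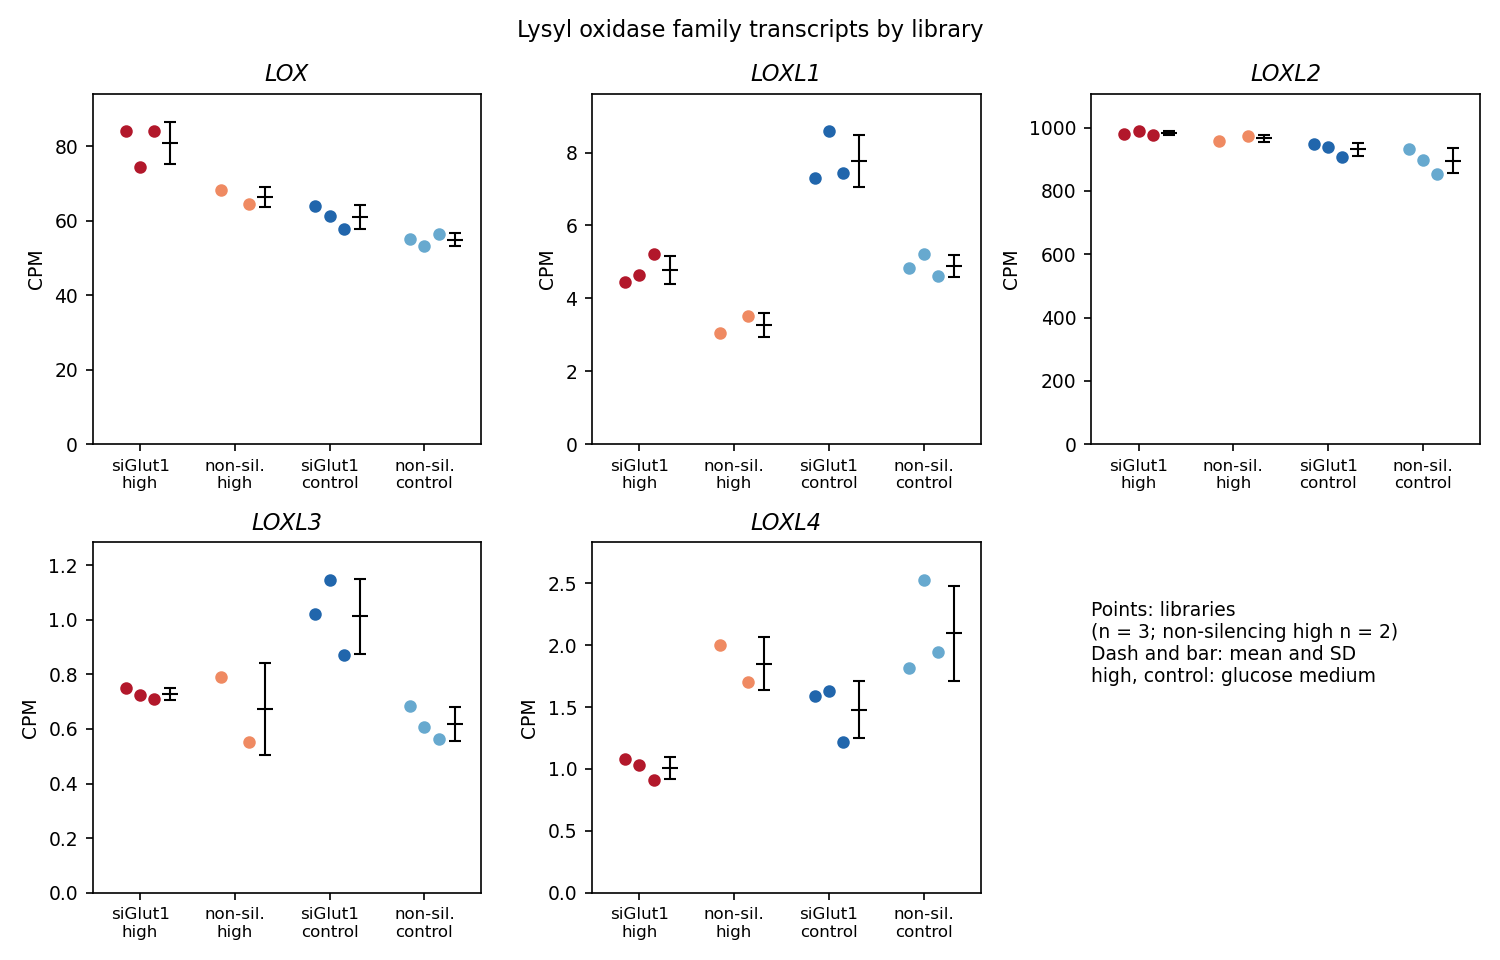
CPM of each lysyl oxidase in every library by group, each panel with its own axis starting at 0; points are libraries and bars the group means with SD. LOX is highest with siGlut1 in high glucose (74.3 to 84.0 CPM) and LOXL1 with siGlut1 in control glucose (7.30 to 8.59 CPM).

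The knockdown comparisons were not used to choose the genes, although they share the same libraries, and here LOX and LOXL1 went the same way. With siGlut1, LOXL1 rose in control glucose to 7.77 ± 0.710 CPM, against 4.88 ± 0.307 CPM with non-silencing siRNA (SD, n = 3 each), a log2 fold change of 0.67 ± 0.12 or 1.60-fold (SE; edgeR adjusted p = 0.0175). It was the only member called in that comparison, in which 2.96% of the 14334 genes tested were called and 1.7% were called higher. This call ended when non-silencing control 1 was left out (0.67, edgeR adjusted p = 0.0614), when siGlut1 control 2 was left out (0.59, edgeR adjusted p = 0.0709), when both control glucose libraries numbered 3 were left out (0.65, edgeR adjusted p = 0.0551) and when only those groups were fitted (0.67, edgeR adjusted p = 0.0797). In high glucose LOXL1 had 4.77 ± 0.388 CPM with siGlut1 (SD, n = 3), against 3.28 ± 0.334 CPM with non-silencing siRNA (SD, n = 2), a log2 difference of 0.54 ± 0.14 that missed the threshold (edgeR adjusted p = 0.0564). Averaged over both media, LOXL1 rose by a log2 fold change of 0.61 ± 0.09, or 1.52-fold (edgeR adjusted p = 0.00215), and this call stood in 20 of 20 alternative settings.

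LOX differed less. In high glucose it had 80.8 ± 5.61 CPM with siGlut1 (SD, n = 3), against 66.3 ± 2.66 CPM with non-silencing siRNA (SD, n = 2), a log2 difference of 0.28 ± 0.08 (edgeR adjusted p = 0.0738). In control glucose it had 61.0 ± 3.17 CPM with siGlut1, against 54.9 ± 1.67 CPM with non-silencing siRNA (SD, n = 3 each), a log2 difference of 0.15 ± 0.07 (edgeR adjusted p = 0.306). Averaged over both media LOX rose by 0.22 ± 0.05, or 1.16-fold (edgeR adjusted p = 0.0207). The averaged call ended without non-silencing high 1 (0.24, edgeR adjusted p = 0.0571), non-silencing high 3 (0.20, edgeR adjusted p = 0.100), siGlut1 control 1 (0.20, edgeR adjusted p = 0.0566) or siGlut1 high 3 (0.20, edgeR adjusted p = 0.0553).

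LOXL4, a member of the scavenger receptor branch, was the member that fell with knockdown. It had 1.08, 1.03 and 0.908 CPM with siGlut1 in high glucose, against 2.0 and 1.70 CPM with non-silencing siRNA in high glucose. The control glucose values were 1.59, 1.63 and 1.22 CPM with siGlut1, against 1.81, 2.53 and 1.94 CPM with non-silencing siRNA. The siRNA groups did not overlap in either medium, and the 3 lowest libraries were those of siGlut1 in high glucose. The log2 difference was -0.88 ± 0.23 in high glucose (edgeR adjusted p = 0.0526) and -0.49 ± 0.20 in control glucose (edgeR adjusted p = 0.227). Averaged over both media LOXL4 fell by 0.69 ± 0.15 on the log2 scale, to 0.622 of the non-silencing level (edgeR adjusted p = 0.0120). The averaged call ended without non-silencing high 1 (-0.62, edgeR adjusted p = 0.0613). LOXL4 rested on 52 to 128 deposited counts a library, so its counting error is larger than that of LOX or LOXL2. Every deposited count is even; if each fragment was counted as a pair of reads, the number of independent observations is smaller than the counts printed here.

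LOXL3, of the same branch, was rarest. It had 0.750, 0.723 and 0.709 CPM with siGlut1 in high glucose, against 0.792 and 0.553 CPM with non-silencing siRNA in high glucose, and these groups overlapped. In control glucose LOXL3 had 1.02, 1.15 and 0.870 CPM with siGlut1, against 0.685, 0.607 and 0.563 CPM with non-silencing siRNA, with no overlap. The log2 difference was 0.11 ± 0.27 in high glucose (edgeR adjusted p = 0.862) and 0.72 ± 0.24 in control glucose (edgeR adjusted p = 0.140). The averaged difference was 0.41 ± 0.18 (edgeR adjusted p = 0.153), with a 95% interval from 0.016 to 0.81. LOXL3 rested on 24 to 90 deposited counts a library.

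LOXL2, which oxidises collagen IV in basement membranes, had the narrowest intervals. It had 981, 989 and 977 CPM with siGlut1 in high glucose, against 959 and 974 CPM with non-silencing siRNA in high glucose, and the groups did not overlap. In control glucose it had 949, 938 and 906 CPM with siGlut1, against 933, 898 and 855 CPM with non-silencing siRNA, and the groups overlapped. The averaged log2 difference with knockdown was 0.04 ± 0.04 (edgeR adjusted p = 0.564), with a 95% interval from -0.051 to 0.13. In deposited RPKM, which is not TMM-scaled, the sign in high glucose was the opposite, with means of 242 with siGlut1 and 243 with non-silencing siRNA and groups that overlapped. The LOXL2 entry lies at chromosome 8, 23154410 to 23261722, on hg19, the build of the deposited coordinates.

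Averaged over media, 3 of the 5 members were called, 2 higher and 1 lower, where 14.4% of the 14334 genes tested were called, 7.93% higher and 6.49% lower. The median log2 difference of the 5 members was 0.22, against -0.0045 over all genes tested. Without both control glucose libraries numbered 3, the averaged differences were 0.24 for LOX (edgeR adjusted p = 0.0140), 0.60 for LOXL1 (0.00367) and -0.66 for LOXL4 (0.0190). In high glucose alone, where 4.11% of genes were called, edgeR called 0 members, 3 had an unadjusted p under 0.05 (20.8% of genes did), and DESeq2 called 3 (LOX, adjusted p = 0.0212; LOXL1, 0.0122; LOXL4, 0.0134). With edgeR all 3 were called there without non-silencing control 3 (LOX, adjusted p = 0.0498; LOXL1, 0.0417; LOXL4, 0.0434), and LOXL4 alone without non-silencing control 2 (0.0490) or siGlut1 control 3 (0.0476). The share of 4.11% (589 genes) belongs to the main edgeR fit only. Over the alternative settings 6 to 1807 genes were called in high glucose, and 6 to 1077 without single libraries. Groups did not overlap in CPM for 4 of 5 members in high glucose and for 4 of 5 in control glucose, where 44.5% and 20.5% of all genes did not.

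**Figure D3:**
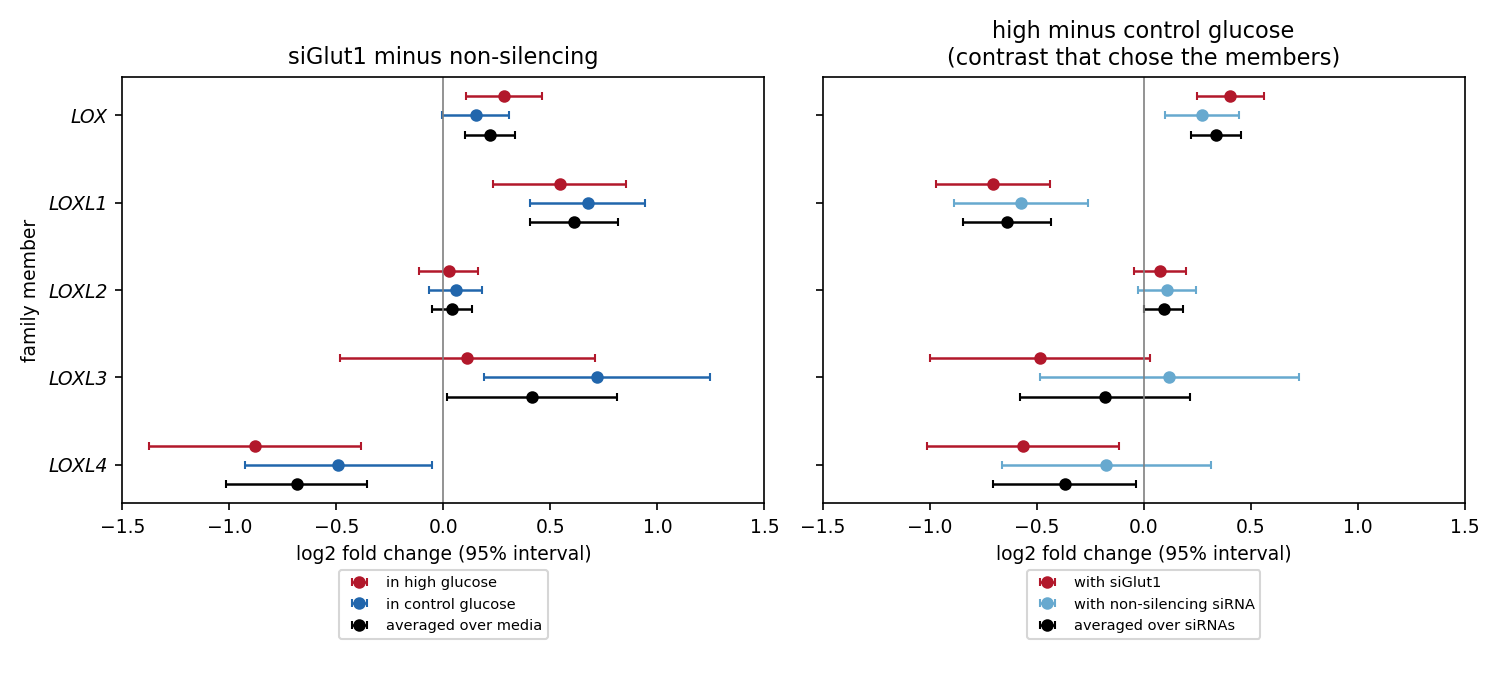
Log2 fold changes of the 5 lysyl oxidases with 95% intervals for siGlut1 over non-silencing siRNA in each medium and averaged over media, and for high over control glucose, the contrast that chose the genes. With knockdown the averaged intervals of LOX (0.10 to 0.34) and LOXL1 (0.40 to 0.81) lie above 0 and that of LOXL4 (-1.02 to -0.36) below.

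Whether the knockdown difference itself differed between media was tested as an interaction, which shares libraries with the contrast that chose the genes. The interaction on the log2 scale was 0.13 ± 0.11 for LOX, -0.13 ± 0.19 for LOXL1, -0.03 ± 0.08 for LOXL2, -0.60 ± 0.36 for LOXL3 and -0.39 ± 0.30 for LOXL4. All had an edgeR adjusted p of 0.999. Of the 14334 genes, edgeR called 0 (0%), DESeq2 called 0, and 394 (2.75%) had an unadjusted p under 0.05. A knockdown difference that depends on the medium was therefore not detectable for any member, and the standard errors leave room for one.

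The ratio of LOX to LOXL1 separated the libraries by medium. LOX over LOXL1, in RPKM, was 8.24, 6.99 and 7.06 with siGlut1 in high glucose, against 9.81 and 8.02 with non-silencing siRNA in high glucose. It was 3.83, 3.12 and 3.39 with siGlut1 in control glucose, against 4.97, 4.46 and 5.37 with non-silencing siRNA in control glucose. Every high glucose library was above every control glucose library, which restates the choice of the pair. Within control glucose all siGlut1 libraries were below all non-silencing ones, and in high glucose the siRNA groups overlapped.

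**Figure D4:**
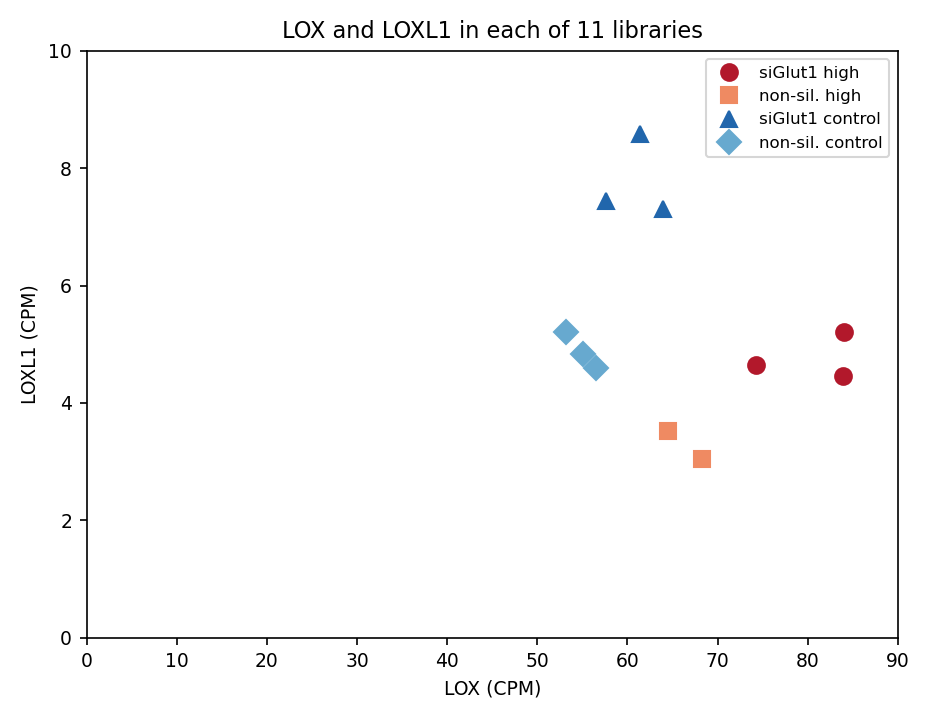
LOX against LOXL1 in CPM, 1 point per library, with groups told apart by colour. All high glucose libraries have a LOX level of at least 64.5 CPM, against at most 64.0 CPM in control glucose, and within each medium the siGlut1 libraries (LOX 74.3 to 84.0 CPM in high glucose and 57.7 to 64.0 CPM in control glucose) lie higher on both axes.

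The LOXL1 entry (chromosome 15, 74218789 to 74244478, hg19) shares 1801 bases with the entry of its antisense RNA LOXL1-AS1, which had 2.0 to 4.74 CPM. Whether strand was used in counting is not stated in the sources used, so reads of this pair may be mixed. The antisense entry itself differed with knockdown by 0.28 ± 0.27 in high glucose and 0.30 ± 0.24 in control glucose and was not called by edgeR. The entries of LOXL2 and LOXL3 overlap LOC100507156 (29918 bases) and DOK1 and HTRA2 (4916 and 738 bases), and reads of these entries may be mixed as well. DOK1 had 9.26 to 13.6 CPM and HTRA2 20.2 to 24.6 CPM, against 0.553 to 1.15 CPM for LOXL3. What part of the LOXL3 counts came from these neighbours was not tested. The LOX entry (chromosome 5, 121398890 to 121414055) and the LOXL4 entry (chromosome 10, 100007443 to 100028007) overlapped no other entry.

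The summed level of the 10 fibroblast markers was 23.4 to 45.9 CPM with siGlut1 and 15.4 to 24.3 CPM with non-silencing siRNA in high glucose. In control glucose it was 16.7 to 39.99 CPM with siGlut1 and 9.33 to 28.4 CPM with non-silencing siRNA, and COL1A2 (4.32 to 37.1 CPM), which is also among the collagen substrates below, led this list. The 10 pericyte and smooth muscle markers summed to 1705 to 2044 CPM with siGlut1 and 2379 to 2443 CPM with non-silencing siRNA in high glucose, and to 1517 to 1623 CPM with siGlut1 and 1846 to 2170 CPM with non-silencing siRNA in control glucose. RGS5, which makes up nearly all of that sum, fell by 0.35 on the log2 scale averaged over media (edgeR adjusted p = 0.00395). It was the only tested marker of that list to be called. ACTA2, MYH11, ABCC9 and NOTCH3 had averaged differences of 0.08, 0.06, 0.13 and 0.32. PDGFRB, at or below 0.363 CPM, had one of -0.94 ± 0.44 (SE; edgeR adjusted p = 0.174). Of the 12 endothelial markers, KDR (0.31, edgeR adjusted p = 0.0164) and TEK (0.29, edgeR adjusted p = 0.0144) rose, where 7.93% of all genes were called higher. Uncalled endothelial differences were 0.19 (CDH5), 0.11 (PECAM1), 0.11 (ERG), 0.06 (TIE1), 0.06 (ROBO4), -0.04 (ESAM), -0.05 (CLDN5), -0.09 (EGFL7), -0.16 (VWF) and -0.32 (EMCN). No fibroblast marker was called, where 14.4% of all genes were. Epithelial markers summed to 276 to 389 CPM (mostly KRT18, with CDH1 at 0), leukocyte markers to 38.0 to 73.3 CPM (nearly all CD68, with PTPRC at or below 0.118) and astrocyte markers to at most 0.138 CPM. The part of these cells or markers in the differences of LOX, LOXL1 and LOXL4, and of the collagen and TGF-beta genes below, was not tested.

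Genes with the pattern most like LOX were found by the root mean square difference of log2 CPM over the 11 libraries, after centring each gene on its own mean. The closest were CAV1 (0.0900), the coat protein of caveolae, SLC9A7 (0.0900), a sodium-proton exchanger, and FNDC3B (0.0919). The search left out the members and names that looked like pseudogenes or clones. That pattern also dropped every gene whose name ends in P or in P and digits. Matrix genes such as CRTAP, BMP1, EFEMP1 and LTBP2 were among them, so they could not appear as closest. The median distance of the genes searched from LOX was 0.286, and LOX itself varied by 0.221 around its mean. CAV1 had 1544 ± 124 CPM with siGlut1 and 1384 ± 12.1 CPM with non-silencing siRNA in high glucose (SD, n = 3 and n = 2), and 1294 ± 106 CPM with siGlut1 and 1198 ± 39.6 CPM with non-silencing siRNA in control glucose (SD, n = 3 each). Closest to LOXL1 were MDK (0.167), the heparin-binding growth factor midkine, GJD3 (0.188), a connexin, and TUBB3 (0.196), a beta tubulin. The median over the genes searched was 0.470, and LOXL1 itself varied by 0.429. GJD3 had 7.01 ± 0.593 CPM with siGlut1 and 3.83 ± 0.0553 CPM with non-silencing siRNA in high glucose (SD, n = 3 and n = 2), and 8.89 ± 0.890 CPM with siGlut1 and 5.65 ± 0.346 CPM with non-silencing siRNA in control glucose (SD, n = 3 each). NFKB2 was closest to LOXL4 (0.139), B2M to LOXL3 (0.156) and RRAGA to LOXL2 (0.0338), and these 3 were looked up after values were seen.

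The substrates of the family were next. Of 9 tested genes for fibrillar collagens, collagen IV and elastin, 1 rose with knockdown averaged over media and 0 fell, where 7.93% of all genes were called higher and 6.49% lower, with a median log2 difference of 0.23, against -0.0045 over all genes tested. COL5A1, a chain of collagen V that sets the width of collagen fibrils, rose by 0.61 ± 0.12 (edgeR adjusted p = 0.00648), and its call held in 20 of 20 alternative settings. It had 419 ± 12.3 CPM with siGlut1 and 261 ± 5.63 CPM with non-silencing siRNA in high glucose (SD, n = 3 and n = 2), and 466 ± 63.4 CPM with siGlut1 and 321 ± 78.8 CPM with non-silencing siRNA in control glucose (SD, n = 3 each). The basement membrane chains COL4A1 and COL4A2 had averaged differences of 0.62 ± 0.21 (edgeR adjusted p = 0.0755) and 0.42 (edgeR adjusted p = 0.170). Without both control glucose libraries numbered 3, COL4A1 differed by 0.61 (edgeR adjusted p = 0.00494) and COL4A2 by 0.41 (edgeR adjusted p = 0.00886), and COL4A1 was also called without siGlut1 control 3 alone (0.74, edgeR adjusted p = 0.0193). Averaged over media, edgeR called 14.4% of all genes, and 29.5% had an unadjusted p under 0.05. Of 12 tested genes of elastic fibre assembly, edgeR called 0, 2 had an unadjusted p under 0.05, DESeq2 called 0, and the median was 0.09. The most abundant of them, EFEMP1 and LTBP2, had averaged differences of -0.13 and 0.05.

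Among 6 tested genes of propeptide processing and of matrix scaffolds, 2 rose and 0 fell, with a median of 0.01 (7.93% of all genes were called higher). TLL1, a tolloid-like protease of the BMP1 type, rose by 0.37 ± 0.08 (edgeR adjusted p = 0.0133), and this call ended without non-silencing high 3 (0.31, edgeR adjusted p = 0.0779). It had 81.2 ± 7.49 CPM with siGlut1 and 61.1 ± 6.91 CPM with non-silencing siRNA in high glucose (SD, n = 3 and n = 2), and 49.2 ± 2.97 CPM with siGlut1 and 39.1 ± 5.33 CPM with non-silencing siRNA in control glucose (SD, n = 3 each). Its glucose difference averaged over siRNAs was 0.68 (edgeR adjusted p = 0.0123), in a comparison where edgeR called 59 genes in all and 0 without non-silencing high 3. Fibronectin (FN1), which binds LOX in the matrix, rose by 0.46 ± 0.14 with an edgeR adjusted p of 0.04999, and its call ended in 10 of 20 alternative settings, among them leaving out any single library but non-silencing control 1, non-silencing control 3 or siGlut1 high 3 (0.40 to 0.50, edgeR adjusted p = 0.0532 to 0.178). BMP1 itself had a difference of 0.23 (edgeR adjusted p = 0.194).

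The enzymes that prepare collagen lysines and prolines gave changes of both signs: 2 of 11 rose and 2 fell, with a median of -0.01 (7.93% of all genes were called higher and 6.49% lower). CRTAP, a subunit of the prolyl 3-hydroxylation complex, fell by 0.38 ± 0.05 averaged over media (edgeR adjusted p = 0.00134), and the averaged call held in 20 of 20 alternative settings. It had 242 ± 13.0 CPM with siGlut1 and 325 ± 1.62 CPM with non-silencing siRNA in high glucose (SD, n = 3 and n = 2), and 257 ± 19.3 CPM with siGlut1 and 326 ± 15.3 CPM with non-silencing siRNA in control glucose (SD, n = 3 each). The lysyl hydroxylases, whose hydroxylysine is the substrate of stable crosslinks, split. PLOD3 rose by 0.30 ± 0.06 (edgeR adjusted p = 0.00913) and PLOD1 by 0.27 (edgeR adjusted p = 0.0414), whereas PLOD2 fell by 0.44 ± 0.12 (edgeR adjusted p = 0.0338). The PLOD3 call ended without non-silencing high 3 (0.29, edgeR adjusted p = 0.0504), and those of PLOD1 and PLOD2 ended in 9 and 7 of 20 alternative settings, all of them with a library left out. For PLOD1 these were all libraries but siGlut1 control 3 and siGlut1 high 2 (0.24 to 0.30, edgeR adjusted p = 0.0546 to 0.149). For PLOD2 they were all but the 3 non-silencing control libraries and siGlut1 control 3 (-0.46 to -0.39, edgeR adjusted p = 0.0566 to 0.103). Of 5 genes of copper supply, which loads the enzymes, edgeR called 0, 0 had an unadjusted p under 0.05, DESeq2 called 0, and the median was -0.02. Of all genes, edgeR called 14.4%, and 29.5% had an unadjusted p under 0.05. SLC31A1 and ATOX1, the copper importer and chaperone, had differences of -0.09 and -0.01.

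The list of TGF-beta signalling, a known inducer of LOX in many cell types, was the longest and had the most calls. Of its 16 tested genes, 6 rose with knockdown averaged over media and 0 fell, where 7.93% of all genes were called higher. In shorter lists, 2 rose and 2 fell of 11 for hydroxylation and folding, and 2 rose of 6 for propeptide processing. Of the 16 differences, 12 were positive, and the genes named here are among those called. The median log2 difference was 0.13. TAGLN, an actin-binding protein and TGF-beta target, rose by 1.36 ± 0.18 (edgeR adjusted p = 0.00102). It had 8.42, 7.43 and 8.95 CPM with siGlut1 in high glucose, against 2.92 and 3.04 CPM with non-silencing siRNA in high glucose, and 11.8, 10.98 and 7.09 CPM with siGlut1 in control glucose, against 4.31, 5.51 and 2.79 CPM with non-silencing siRNA in control glucose. No siGlut1 library overlapped a non-silencing one. The ligand TGFB2 rose by 0.73 ± 0.12 (edgeR adjusted p = 0.00343), the receptor TGFBR1 by 0.55 ± 0.08 (edgeR adjusted p = 0.00204) and the matricellular target CTGF by 0.35 ± 0.07 (edgeR adjusted p = 0.00730). The averaged calls of TAGLN, TGFB2, TGFBR1 and CTGF held in 20 of 20 alternative settings, while the list's count spanned 4 to 8 over them, with 4 without non-silencing high 3. In high glucose alone 3 of the 16 were called higher, and in control glucose alone 3, where 2.46% and 1.7% of all genes were, a count that fell to 0 in control glucose without siGlut1 control 1 or siGlut1 control 2, and to 0 in high glucose without non-silencing high 1, non-silencing high 3 or siGlut1 high 3.

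Of 12 tested hypoxia factors and targets, a group that includes known inducers of LOX and LOXL2, 1 rose and 2 fell averaged over media, with a median of 0.07 (7.93% of all genes were called higher and 6.49% lower). NDRG1 rose by 0.23 (edgeR adjusted p = 0.0190), and BNIP3 fell by 0.29 (edgeR adjusted p = 0.0144), beside PLOD2, which is in this list too. The NDRG1 call ended without non-silencing high 1 (0.24, edgeR adjusted p = 0.0606) or non-silencing high 3 (0.21, edgeR adjusted p = 0.0901), and the BNIP3 call without non-silencing high 3 (-0.26, edgeR adjusted p = 0.0736). EPAS1, which encodes HIF-2 alpha, had a difference of 0.07, and LDHA one of -0.23 (edgeR adjusted p = 0.110).

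**Figure D5:**
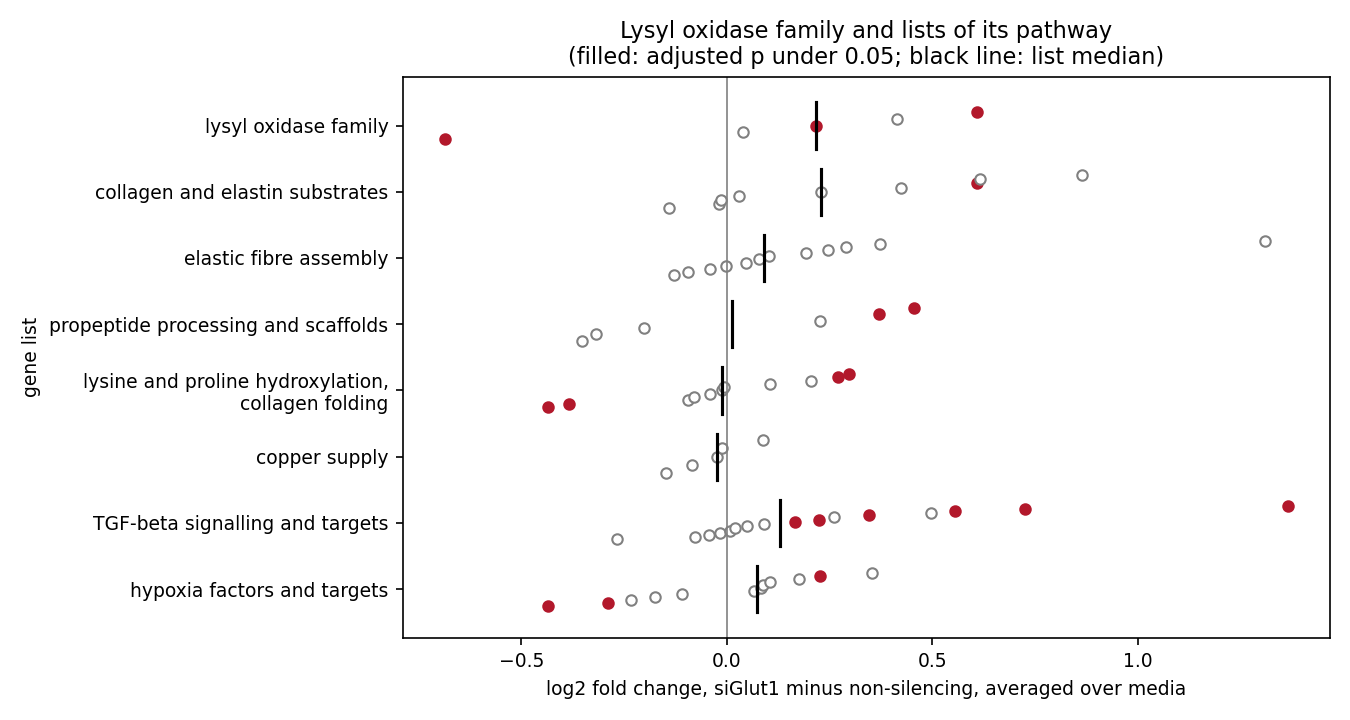
Log2 fold changes of the tested genes of each pathway list for siGlut1 over non-silencing siRNA averaged over media, with points for genes, filled where the edgeR adjusted p is under 0.05, and a bar at the list's median. TGF-beta signalling, the longest list with 16 genes, holds 6 filled points, all above 0, and copper supply and elastic fibre assembly hold 0.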

How the data were processed

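RNA was measured in 12 labelled samples. The deposited table gives, per the file headers, a count and an RPKM for each sample and gene, with hg19 coordinates. The deposited counts are whole numbers, not normalised, and all even in the 11 libraries used. RPKM, also deposited, is the authors' scaling by gene length and library total. Per the submitters' processing notes the tools include DESeq2. The labels' protocols name both TruSeq stranded mRNA and SMARTER kits. Aligner, counting tool and use of strand: not given in the sources used here.

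Names on more than 1 row were dropped (101 rows), which left 23297. Counts were tested in R 4.3.3 with edgeR 4.0.16: filterByExpr kept 14334 genes, all 5 members included, TMM factors were 0.975 to 1.03, and 1 quasi-likelihood model held all 4 groups with no replicate block. Tests were two-sided, adjusted by Benjamini-Hochberg over all genes, with a threshold of 0.05 and no fold minimum. Standard errors of log2 fold changes came from the fit, and CPM values used TMM-scaled totals. Depth per library was 40135082 to 90536476 counts, and a gene's count sets its precision.

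The members and lists were chosen with earlier results of these data known. Genes named were the members, SLC2A1, up to 4 called genes per list and comparison by adjusted p (the 2 with most counts where none was called), and the 3 most like LOX and LOXL1. Cell type markers were named after their values were seen, and 1 listed gene is not reported here. Left out was the column that equals the mean of its 2 neighbours, and 0 columns lacked a sample. Alternatives were DESeq2 1.42.0, other scalings and filters, a replicate block, a length trend, all 12 columns, only the groups compared, and each library left out. Sequences came from RefSeq (GRCh38.p14), and no coordinate was moved between builds.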

Additional observations from a re-analysis of the deposited data

How the results depend on the processing

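The counts of members called depended on the setting. In control glucose the 1 call became 0 when only the groups compared were fitted and when both control-glucose replicates numbered 3 were left out, and it spanned 0 to 1 without single libraries. In high glucose the 0 calls became 1 with a replicate block (LOXL4, -0.95, edgeR adjusted p = 0.0387), 3 with DESeq2, 1 with a minimum of 1 CPM in 6 libraries, 3 with all 12 columns, 1 with the length trend removed, 3 without both replicates numbered 3, and 0 to 3 without single libraries. Averaged over media the 3 calls spanned 1 to 3 without single libraries. The cause was not tested. The minimum of 1 CPM removed LOXL3, and fitting only the groups compared was not possible for averages or the interaction. The replicate numbers were not taken to pair the samples: same-number correlations between siRNAs were 0.19 and 0.23 in high glucose, with only 2 pairs, and 0.094, 0.35 and 0.54 in control glucose, of which 1 is under 0.1, and those between media were -0.25 to 0.24. Those between siRNAs were all positive. The block that was run gave each replicate number 1 effect shared by both media, and pairs within each medium were not fitted. Under the block 560 genes, against 424, were called in control glucose and 597, against 589, in high glucose. DESeq2, fitting all 12 columns and fitting only the groups compared called 1053, 824 and 70 genes in control glucose and 1310, 1807 and 1149 in high glucose. Without both replicates numbered 3 the counts were 247 and 1674, and without single libraries they spanned 131 to 343 in control glucose and 6 to 1077 in high glucose. Averaged over media, 2066 genes became 3182 with all 12 columns and 1000 to 2497 without single libraries. For glucose averaged over siRNAs, 59 genes became 540 with DESeq2, 427 with all 12 columns, 2583 without both replicates numbered 3 and 0 to 836 without single libraries. With siGlut1, 2 genes for glucose became 432 with DESeq2, 36 with all 12 columns and 735 without both replicates numbered 3. With non-silencing siRNA, 0 became 33, 11 and 48.

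Signs of uncalled values turned when single libraries were left out, as these lowest and highest log2 differences show. In high glucose LOXL3 spanned -0.12 to 0.39, SLC31A1 -0.13 to 0.0039 and EPAS1 -0.022 to 0.17. In control glucose LTBP2 spanned -0.17 to 0.043, EFEMP1 -0.23 to 0.15, FN1 -0.035 to 0.34 and EPAS1 -0.15 to 0.25. Averaged over media LTBP2 spanned -0.013 to 0.10, ATOX1 -0.047 to 0.019 and EPAS1 -0.032 to 0.17, and with the length trend removed LTBP2 was -0.0014 and ATOX1 0.035. Halving the counts, an alternative chosen after seeing that all were even, ended no call of a member. The glucose differences averaged over siRNAs, which chose the genes, spanned 0.31 to 0.37 for LOX and -0.69 to -0.59 for LOXL1 over the settings run, and each had an adjusted p under 0.05 in only 12 of 20 (up to 0.217 for LOX and 0.201 for LOXL1). LOXL3 and LOXL4 are limited by depth, at 24 to 90 and 52 to 128 deposited counts a library, fewer if fragments were counted as pairs.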
